A study of Mus musculus with 2 samples.

Results

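The platelet-derived growth factors and their receptors are a family of 6 genes, which were followed by symbol among the 31053 genes of the deposited matrices and were all detected in both libraries. The ligand genes are Pdgfa (ENSMUSG00000025856), Pdgfb (ENSMUSG00000000489), Pdgfc (ENSMUSG00000028019) and Pdgfd (ENSMUSG00000032006), and the receptor genes are Pdgfra (ENSMUSG00000029231) and Pdgfrb (ENSMUSG00000024620). In GRCm38 they lie at chr5:138976014-138997370 on the minus strand (Pdgfa), chr15:79995874-80014977 on the minus strand (Pdgfb), chr3:81036416-81214040 on the plus strand (Pdgfc), chr9:6168584-6378850 on the plus strand (Pdgfd), chr5:75152292-75198215 on the plus strand (Pdgfra) and chr18:61045150-61085061 on the plus strand (Pdgfrb).

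Cells from mouse hearts at postnatal day 1 (P1) and day 7 (P7) were compared by droplet-based 3′ single cell RNA-seq, on either side of the loss of neonatal heart regeneration. Each age is a single library of sorted live cells, made from 3 hearts of a single litter that were minced together, from intact mice whose strain is not given for these samples in the sources used here. Collagenase II digestion lasted 20 minutes at P1 and 45 minutes at P7, and red blood cells were lysed at both ages. There is no replicate at either age, so no test between the ages was possible, and all intervals given below are 95% intervals for counting error alone.

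After barcodes with under 200 or over 8000 genes or over 20% mitochondrial unique molecular identifiers (UMIs, each counting a captured transcript) were removed, 4991 of 7836 barcodes remained at P1 and 8511 of 9077 at P7, with medians of 10875 and 10104 UMIs. The libraries shared 18 barcode sequences, 13 of them among the kept barcodes, and none with identical profiles. Xist, which is expressed from the inactive X chromosome, had 57336 UMIs at P1 and 12 at P7, and the Y-linked Ddx3y had 0 and 7623. Age, sex, litter and digestion time therefore cannot be told apart in any comparison of P1 with P7.

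PDGF proteins act as dimers on receptor tyrosine kinases. PDGF-A and PDGF-B are trimmed by furin-like convertases inside the cell, whereas PDGF-C and PDGF-D are secreted with a CUB domain that proteases such as tissue plasminogen activator (PDGF-C) and urokinase (PDGF-D) remove. PDGFRA binds the A, B and C chains and marks cardiac fibroblasts and their progenitors, and PDGFRB binds the B and D chains and is the receptor through which endothelial PDGF-B recruits pericytes and smooth muscle to vessels.

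Cells were assigned to classes by genes outside the family. The gates were Cdh5 for endothelial cells, abundant Dcn without Pecam1 for fibroblasts, Myh11 for smooth muscle, Kcnj8 for pericytes, Csf1r for macrophages and Upk3b for epicardial cells. At P1 and P7 they held 1655 and 3283 endothelial, 1493 and 2713 fibroblast, 149 and 386 smooth muscle, 167 and 310 pericyte, 177 and 183 macrophage and 42 and 20 epicardial barcodes. All 5 markers kept aside for each of these classes were detected in it at both ages. Detection in such large sums does not tell classes apart, since all 5 fibroblast markers were also detected in the endothelial class. At P7 these summed to 1324 CPM there and 16559 CPM in fibroblasts. Lymphocytes (Cd3e or Cd79a, 33 and 281 barcodes), which should lack the receptors, are shown as 1 measure of background. They are not the lowest such measure, since the summed fibroblast markers Col1a1, Col1a2, Lum, Tcf21 and Dpt were at 2378 and 1575 CPM in lymphocytes but 139 and 448 CPM in macrophages. Levels are UMIs of the gene per 1000000 UMIs of the class (CPM), and a gene was counted as past the fold when its CPM differed at least 2-fold with a counting interval that excluded equality.

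Over all kept cells, Pdgfc was the only member past the fold, whereas 12.4% of the 16552 genes with at least 20 UMIs were. Pdgfc read 166 UMIs (2.81 CPM) at P1 and 64 UMIs (0.657 CPM) at P7, a log2 ratio of P1 over P7 of 2.09 (interval 1.67 to 2.54). Pdgfra was at 85.8 CPM at P1 and 106 CPM at P7 (log2 ratio -0.31, interval -0.36 to -0.26). Pdgfb was at 56.3 and 60.7 CPM (-0.11, interval -0.17 to -0.05). These differences for Pdgfra and Pdgfb exceeded counting error, but they were small beside the 2-fold limit, and Pdgfra was at -0.044 when each barcode was thinned to 2000 UMIs and turned to 0.11 as the mean of CPM per barcode. Pdgfd was at 11.9 and 13.7 CPM (-0.20, interval -0.33 to -0.06). Pdgfrb was at 66.6 and 71.0 CPM (-0.09, interval -0.15 to -0.04), which turned to 0.032 as the mean per barcode. For Pdgfa, at 21.5 and 20.1 CPM, the interval of the log2 ratio (0.10) ran from -0.004 to 0.20 and included equality.

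The mix of classes differed between the libraries, so the P7 levels of each class were also summed at the P1 class shares of UMIs. Pdgfc was then at 0.757 CPM, below the 2.81 CPM of P1, and Pdgfra was at 98.3 CPM. These sums do not adjust for the mix of subsets within a class. The Fmod-positive subset described below, rich in Pdgfc, was 181 of 1493 fibroblast barcodes at P1 and 115 of 2713 at P7. Endocardial barcodes were 223 of 1655 and 68 of 3283 endothelial barcodes. The part of these shifts in the Pdgfc difference was not tested. Alveolar epithelial genes were at 238 CPM over all cells at P1 and 1.14 CPM at P7, and genes of lung mesenchyme and posterior position (Hoxa4, Hoxa5, Hoxb4, Hoxb5, Tbx4 and Foxf1) were at 41.4 and 9.73 CPM. Barcodes with any UMI of these lung mesenchyme and posterior genes, or with more than a single alveolar gene, were 757 at P1 and 699 at P7. Without them the log2 ratio of Pdgfc over all cells was 1.82 (interval 1.38 to 2.28).

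**Figure D1:**
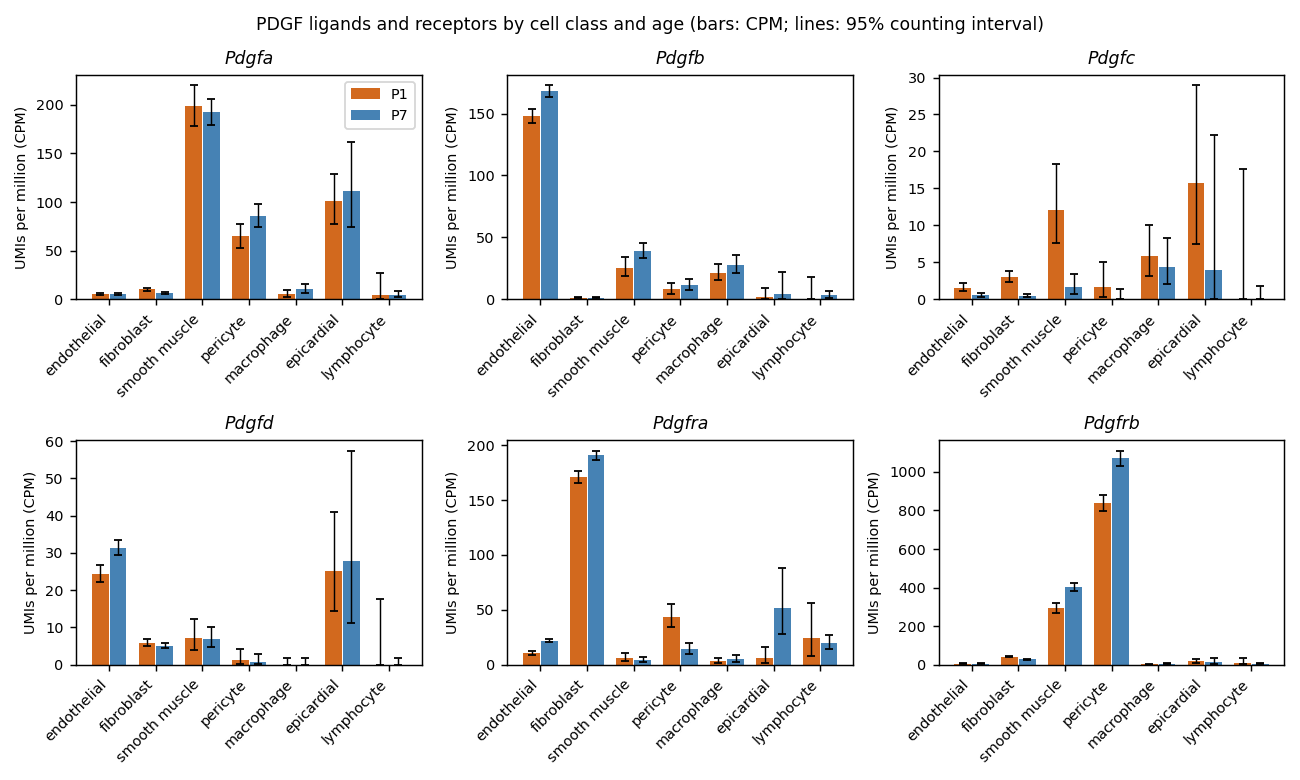
Level of each PDGF gene (vertical axis, CPM, linear from 0, each panel on its own scale) in 7 cell classes at P1 (orange) and P7 (blue), with lines for the 95% counting interval of a single library. Among the classes plotted, Pdgfb is highest in endothelial cells, Pdgfra in fibroblasts, Pdgfrb in pericytes and Pdgfa in smooth muscle at both ages.

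Among the ligands, Pdgfb, which endothelium releases toward mural cells, was the most concentrated in a single class. Endothelial barcodes held 89.6% of its UMIs at P1 and 87.3% at P7. The endothelial level was 148 CPM (143 to 153) at P1 and 168 CPM (164 to 173) at P7, a log2 ratio of -0.18 (interval -0.25 to -0.12). The next classes were far below. Smooth muscle read 25.4 and 39.2 CPM (-0.62, interval -1.13 to -0.15), and macrophages read 21.6 and 27.9 CPM (-0.37, interval -0.95 to 0.21). The intervals of smooth muscle and macrophages overlapped at each age, so their order was not resolved. Pericytes were at 8.09 and 11.2 CPM, and fibroblasts were at 1.12 and 1.38 CPM. The fibroblast level lay below the 3.39 CPM of P7 lymphocytes.

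Within the endothelial class, Pdgfb differed between subsets marked by a single gene. The endocardial subset (Npr3) had the lowest level, 38.6 CPM against 170 CPM in the other endothelial barcodes at P1 (log2 ratio -2.13, interval -2.40 to -1.88) and 30.9 against 172 CPM at P7 (-2.46, interval -3.07 to -1.95). Lymphatic barcodes (Prox1) were intermediate, with 76.4 CPM at P1 and 73.1 CPM at P7. Capillary barcodes with Aplnr were at 159 and 158 CPM, and those with Car4 at 179 and 181 CPM. In both capillary subsets the interval of the log2 ratio included equality (-0.08 to 0.09 for Aplnr and -0.12 to 0.09 for Car4). In the arterial subset (Gja5) it did not, with 176 CPM (148 to 207) in 62 barcodes at P1 and 255 CPM (232 to 279) in 181 barcodes at P7, a log2 ratio of -0.53 (interval -0.82 to -0.26). Nor did it in the 329 and 451 endothelial barcodes that were in none of these subsets. They were at 180 and 235 CPM (-0.39, interval -0.54 to -0.23). The lung and posterior genes were at 88.4 and 17.8 CPM in arterial barcodes and 71.6 and 22.9 CPM in the endothelial class. Only in lymphatic barcodes, at 18.2 and 21.1 CPM, were they higher at P7. Subset ratios were not recomputed without barcodes carrying these genes, and their part was not tested.

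Pdgfd, the latent ligand of PDGFRB, was also mainly endothelial, with 69.6% of its UMIs in that class at P1 and 72.2% at P7. Endothelial cells were at 24.4 CPM (22.3 to 26.7) at P1 and 31.4 CPM (29.4 to 33.4) at P7, a log2 ratio of -0.36 (interval -0.52 to -0.21). Epicardial cells read 25.2 and 27.9 CPM from only 16 and 7 UMIs, so the order of epicardial and endothelial cells was not resolved. Fibroblasts were at 5.84 and 5.01 CPM and smooth muscle at 7.17 and 6.97 CPM. Macrophages read 0 UMIs at both ages, which allows up to 1.35 CPM at P1 and 1.47 CPM at P7 at a limit of 3 counts. Arterial barcodes had more Pdgfd than the other endothelial barcodes, 68.2 against 22.6 CPM at P1 (log2 ratio 1.61, interval 1.16 to 2.00) and 98.4 against 27.1 CPM at P7 (1.86, interval 1.62 to 2.10). In the same arterial comparison Pdgfb differed by less than 2-fold at both ages. Of all genes compared in this way, 8.55% at P1 and 11.2% at P7 were past the fold, as were 3 of 6 members at P1 (Pdgfa, Pdgfd and Pdgfrb) and 2 of the 5 members tested at P7 (Pdgfa and Pdgfd). Summed smooth muscle markers were at 371 and 118 CPM in arterial barcodes, beside 79.0 and 101 CPM in the endothelial class. Their part in the Pdgfa and Pdgfrb calls was not tested.

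Pdgfa, a ligand of PDGFRA, was highest in smooth muscle among the 6 gated classes, and this class held 28.3% of its UMIs at P1 and 40.8% at P7. The remaining UMIs were spread over fibroblasts (18.0% and 14.7%), pericytes (8.81% and 11.3%), endothelial cells (8.57% and 8.92%) and other barcodes. Smooth muscle was at 198 CPM (179 to 220) at P1 and 192 CPM (179 to 206) at P7, and the log2 ratio of 0.05 (interval -0.14 to 0.23) included equality. Epicardial cells read 101 and 112 CPM, and pericytes read 64.7 CPM (53.3 to 77.9) and 85.6 CPM (74.7 to 97.6). Epicardial and pericyte intervals touched at P1 (77.6 to 129 for epicardial cells) and overlapped at P7. The pericyte log2 ratio was -0.40 (interval -0.74 to -0.07). Fibroblasts were lower, at 10.3 and 6.62 CPM, with a log2 ratio in the other direction of 0.63 (interval 0.38 to 0.89). Endothelial cells as a whole were at 5.42 and 5.70 CPM, beside 4.79 and 4.36 CPM in lymphocytes, which rest on 1 and 9 UMIs. The endothelial subsets differed. Arterial barcodes read 21.5 and 15.7 CPM, endocardial barcodes 10.6 and 25.3 CPM, and lymphatic barcodes 14.8 and 30.0 CPM. Capillary barcodes read 2.02 and 3.15 CPM with Aplnr and 1.05 and 2.07 CPM with Car4.

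Pdgfc, the latent ligand of PDGFRA, was the sparsest member and the one that differed most between the ages. It was spread over several classes, with 40.4% of its UMIs in fibroblasts at P1 and 34.4% at P7. Fibroblasts read 67 UMIs at P1 (3.01 CPM, 2.33 to 3.82) and 22 at P7 (0.506 CPM, 0.317 to 0.766), a log2 ratio of 2.55 (interval 1.86 to 3.34). Pdgfc was the only member past the fold in fibroblasts, where 10.7% of 14217 genes were. Smooth muscle read 22 UMIs (12.1 CPM) and 7 UMIs (1.68 CPM), a log2 ratio of 2.78 (interval 1.57 to 4.32), and Pdgfc was again the only member past the fold, beside 6.77% of all genes. When thinned, its interval in smooth muscle ran from -0.41 to 5.86. Fibroblast markers (2313 and 984 CPM), cardiomyocyte markers (663 and 136 CPM) and the lung and posterior genes (40.8 and 6.49 CPM) were also higher in the smooth muscle class at P1, and their part in the Pdgfc difference was not tested. In endothelial cells the log2 ratio was 1.50 (interval 0.63 to 2.46) from 32 and 17 UMIs. Macrophages, with 13 and 9 UMIs (5.84 and 4.40 CPM), showed no difference beyond counting error (0.39, interval -0.93 to 1.82). Epicardial cells read 10 UMIs (15.7 CPM) and 1 UMI (3.98 CPM), too few to compare, and their intervals overlapped those of every other class at P7.

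Within fibroblasts, most Pdgfc UMIs lay in barcodes with Fmod (fibromodulin, a proteoglycan of dense matrix). These were 181 barcodes at P1 and 115 at P7. They held 46 of the 67 fibroblast UMIs at P1 and 12 of the 22 at P7, which are 17.8 CPM (13.0 to 23.7) and 6.51 CPM (3.36 to 11.4). The other fibroblasts were at 1.07 and 0.240 CPM, so Fmod-positive barcodes were higher at P1 (log2 ratio 4.04, interval 3.29 to 4.88) and at P7 (4.75, interval 3.42 to 6.13). Pdgfa was also higher in Fmod-positive barcodes, with 40.6 against 6.30 CPM at P1 (2.69, interval 2.30 to 3.08) and 51.5 against 4.64 CPM at P7 (3.48, interval 3.10 to 3.84). The summed smooth muscle markers (Acta2, Tagln, Cnn1, Mylk and Lmod1) moved with it, at 2015 against 529 CPM at P1 and 1245 against 388 CPM at P7, and their part in the Pdgfa difference was not tested. Between these subsets 13.7% of all genes at P1 and 12.3% at P7 were past the fold, as were 4 and 5 of the 6 members. The age difference of Pdgfc was seen on either side of this division, with log2 ratios of P1 over P7 of 1.41 (interval 0.51 to 2.50) in Fmod-positive barcodes and 2.11 (interval 1.00 to 3.40) in the other fibroblasts. Both were below the 2.55 of the whole class.

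In the endothelial class most Pdgfc UMIs were endocardial. Endocardial barcodes carried 24 of the 32 endothelial UMIs at P1 and 14 of the 17 at P7. Their level was 7.24 CPM (4.64 to 10.8) in 223 barcodes at P1 and 15.4 CPM (8.44 to 25.9) in 68 barcodes at P7, a log2 ratio of -1.11 (interval -2.10 to -0.028). The endothelial class as a whole had the opposite sign and held a larger number of endocardial barcodes at P1 than at P7. The other subsets had too few UMIs to compare, and the difference between subsets was not tested. Endocardial barcodes were past the fold against the rest of the class for 5 of 6 members at P1 and 4 of the 5 members tested at P7, where 17.5% and 15.4% of all genes were. Between the ages, endocardial Pdgfa (-1.27, interval -2.06 to -0.44) and Pdgfd (-1.13, interval -2.06 to -0.12) were also higher at P7. The intervals of Pdgfb, Pdgfra and Pdgfrb included equality. No share of all genes is given for this comparison of ages.

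**Figure D2:**
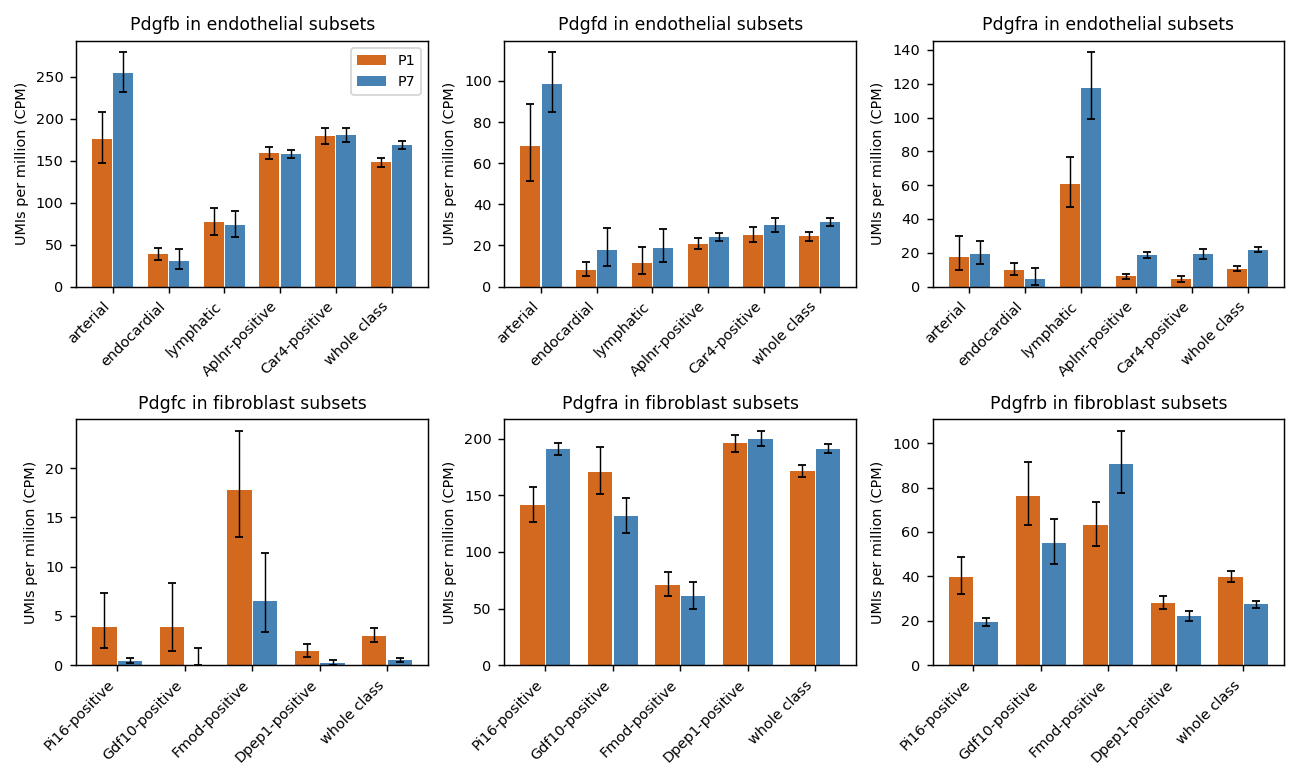
Level (CPM, linear from 0) of 3 members in endothelial subsets (upper row) and 3 in fibroblast subsets (lower row) at P1 (orange) and P7 (blue), with 95% counting intervals; subsets are barcodes with the gene Gja5 (arterial), Npr3 (endocardial), Prox1 (lymphatic), Aplnr, Car4, Pi16, Gdf10, Fmod or Dpep1 and may overlap. Arterial barcodes stand above the other endothelial subsets for Pdgfd at both ages, lymphatic barcodes for Pdgfra, and Fmod-positive fibroblasts for Pdgfc.

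The sequences before the transcription starts of 3 of these ligands are shown because the ligands differed in where and when they were read: Pdgfc differed most between the ages, Pdgfa was level in smooth muscle within counting error, and Pdgfd was highest in arterial barcodes. They are the 250 bases upstream of the RefSeq start in GRCm38.p6, read 5′ to 3′ on the strand of the gene, with GC boxes (GGGCGG, or CCGCCC on the other strand) and TATA boxes (TATAAA, or TTTATA) in capitals. The windows are chr3:81036166-81036415 on the plus strand for Pdgfc, chr5:138994945-138995194 on the minus strand for the outer of the RefSeq starts of Pdgfa, and chr9:6168236-6168485 on the plus strand for Pdgfd. The Pdgfa window lies inside the GENCODE interval given above for this gene, whose 5′ end is farther upstream, so the annotations differ.
Pdgfc: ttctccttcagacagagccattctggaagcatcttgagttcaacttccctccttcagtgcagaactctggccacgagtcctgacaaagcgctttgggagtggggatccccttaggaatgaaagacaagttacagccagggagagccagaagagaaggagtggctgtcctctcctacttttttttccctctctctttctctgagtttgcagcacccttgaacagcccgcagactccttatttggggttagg
Pdgfa: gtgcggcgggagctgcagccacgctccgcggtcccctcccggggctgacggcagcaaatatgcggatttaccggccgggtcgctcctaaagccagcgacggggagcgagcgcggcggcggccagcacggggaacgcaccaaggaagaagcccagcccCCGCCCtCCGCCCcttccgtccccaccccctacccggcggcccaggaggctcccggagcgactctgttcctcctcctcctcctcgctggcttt
Pdgfd: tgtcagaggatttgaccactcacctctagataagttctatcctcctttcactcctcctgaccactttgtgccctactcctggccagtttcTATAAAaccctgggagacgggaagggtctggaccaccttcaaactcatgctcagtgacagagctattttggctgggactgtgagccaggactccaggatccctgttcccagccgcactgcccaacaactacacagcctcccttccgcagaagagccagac

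Pdgfc had neither motif, Pdgfa had 2 GC boxes and Pdgfd had 1 TATA box, 160 bases before the start. Of 32851 mouse promoter windows of the same length, 32.7% held a GC box and 12.4% a TATA box, so these matches are common. The share of G and C was 50.8% for Pdgfc, 72.4% for Pdgfa and 53.6% for Pdgfd, beside a median of 52.4% over all windows. The window of Pdgfra (54.4% G and C) also had neither motif, and none of these windows had a CCAAT box (CCAAT, in 33.8% of all windows) or an AP-1 site (TGANTCA, in 6.75%). A match describes the letters of the window and is not evidence of binding.

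Pdgfra, the receptor for PDGF-A and PDGF-C, was read mainly in fibroblasts, which held 75.4% of its UMIs at P1 and 80.1% at P7. The fibroblast level was 171 CPM (166 to 177) at P1 and 191 CPM (187 to 195) at P7, a log2 ratio of -0.16 (interval -0.21 to -0.10). Fmod-positive fibroblasts were lower than the rest, with 70.8 against 185 CPM at P1 (log2 ratio -1.38, interval -1.60 to -1.17) and 60.8 against 197 CPM at P7 (-1.69, interval -1.98 to -1.43). These are the same barcodes in which Pdgfc and Pdgfa were higher. Dpep1-positive fibroblasts were at 196 and 200 CPM. Pi16-positive fibroblasts were at 141 CPM (126 to 157) at P1 and 191 CPM (186 to 196) at P7, and Gdf10-positive fibroblasts went the other way, from 171 CPM (151 to 193) to 132 CPM (117 to 148).

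Outside fibroblasts Pdgfra was lower, and the levels of the other classes differed among themselves. Lymphocytes read 24.0 CPM at P1 (5 UMIs, 7.78 to 55.9) and 19.9 CPM at P7 (14.3 to 26.9), at median depths of 5153 and 5377 UMIs. Macrophages read 3.15 and 4.89 CPM (1.26 to 6.48 and 2.34 to 8.99), and smooth muscle read 6.07 and 4.56 CPM (3.03 to 10.9 and 2.75 to 7.13). Endothelial cells read 10.6 CPM (9.21 to 12.1) and 21.9 CPM (20.3 to 23.6). The log2 ratio was -1.05 (interval -1.28 to -0.82). Pdgfra and Pdgfc were the 2 of 6 members past the fold in endothelial cells, where 8.85% of all genes were. Neither call was kept under every alternative. Pdgfra was at -0.40 as the mean per barcode, -0.46 when thinned, -0.69 without the 5% deepest barcodes, -0.85 with gates of 1 UMI and -0.98 with median-ratio scaling, and the interval of Pdgfc reached 0 with gates of 4 UMIs (1.11). The summed fibroblast markers in the endothelial class moved with Pdgfra, from 559 CPM at P1 to 1324 CPM at P7. Pdgfra was at 18.9 UMIs per 1000 of these marker UMIs in endothelial cells at P1 and 16.5 at P7, beside 13.6 and 11.5 in fibroblasts. Capillary barcodes were at 11.6 and 15.4 with Aplnr and 11.6 and 14.4 with Car4. Arterial barcodes were at 22.7 and 13.9 and endocardial barcodes at 19.3 and 4.50, and the higher lymphatic values are given below. The CPM interval of Pdgfra in the whole endothelial class overlapped that of lymphocytes at both ages and lay above that of macrophages. The part of fibroblast RNA in the endothelial difference was not tested.

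Lymphatic barcodes had more Pdgfra than the other endothelial barcodes at both ages. They read 60.8 CPM of Pdgfra (47.4 to 76.8, 78 barcodes) at P1 and 118 CPM (99.3 to 139, 86 barcodes) at P7, against 7.54 and 17.9 CPM in the other endothelial barcodes. The log2 ratios were 3.02 (interval 2.58 to 3.43) and 2.72 (interval 2.44 to 2.99). Relative to 1000 fibroblast marker UMIs, Pdgfra was at 380 (297 to 481) in lymphatic barcodes at P1 and 68.5 (57.8 to 80.6) at P7, above the fibroblasts' own 13.6 and 11.5. At least 1 Pdgfra UMI was found in 25.6% and 22.1% of lymphatic barcodes, beside 6.06% and 7.12% of lymphocytes. After every barcode was thinned to 2000 UMIs these shares were 11.8% and 12.8%, beside 3.03% and 2.22%. Unthinned, the 70 and 145 Pdgfra UMIs thus lay in a minority of the lymphatic barcodes. The counting intervals do not cover spread between barcodes. Past the fold in lymphatic against other endothelial barcodes were 4 of 6 members at P1 and 4 of the 5 members tested at P7, beside 9.79% and 10.7% of all genes.

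In pericytes Pdgfra read 76 UMIs (43.9 CPM, 34.6 to 55.0) at P1 and 37 UMIs (14.3 CPM, 10.1 to 19.7) at P7, a log2 ratio of 1.61 (interval 1.03 to 2.22). It was the 1 member past the fold of the 4 that could be compared there, beside 5.24% of all genes. The P7 interval overlapped that of the lymphocytes, and the P1 level lay inside the wide interval of the P1 lymphocytes. The summed fibroblast markers were at 2686 CPM at P1 and 2589 CPM at P7 in this class, while the summed pericyte markers (Abcc9, Rgs5, Vtn, Higd1b and Notch3) were at 5982 and 11445 CPM. Pdgfra was at 16.3 UMIs per 1000 fibroblast marker UMIs in pericytes at P1 and 5.53 at P7. Its UMIs lay in only 26 of 167 pericyte barcodes at P1 and 13 of 310 at P7, unthinned. Pdgfrb was found in 17 of these 26 barcodes at P1, beside 151 of all 167. At P7 it was found in 8 of the 13, beside 302 of all 310. Whether the barcodes with Pdgfra were pericytes was not tested. The sum of the 6 genes of lung mesenchyme and posterior position in the pericyte class was at 131 CPM at P1 and 16.3 CPM at P7. Without the 38 and 32 pericyte barcodes with any of those genes, or with more than a single alveolar gene, the log2 ratio of Pdgfra was 1.13 (interval 0.46 to 1.82). With barcodes that passed several gates kept it was 0.55. Epicardial cells read 4 UMIs at P1 and 13 at P7, of which 11 lay in a single barcode, so no difference is read there.

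Pdgfrb, the receptor for PDGF-B and PDGF-D, was highest in pericytes, followed by smooth muscle and then fibroblasts, and the intervals of these 3 classes did not overlap at either age. Pericytes were at 838 CPM (796 to 882) at P1 and 1070 CPM (1031 to 1111) at P7, a log2 ratio of -0.35 (interval -0.44 to -0.26). Smooth muscle was at 292 CPM (267 to 318) and 402 CPM (383 to 421). Its log2 ratio was -0.46 (interval -0.60 to -0.32). The mural classes were thus both higher at P7, by less than 2-fold, and the summed pericyte markers in the pericyte class were higher at P7 too. Fibroblasts had the opposite sign, at 39.9 CPM (37.3 to 42.6) at P1 and 27.5 CPM (26.0 to 29.1) at P7, a log2 ratio of 0.53 (interval 0.41 to 0.66). Markers of other Pdgfrb-expressing cells moved with these values. In the fibroblast class smooth muscle markers were at 701 and 424 CPM and pericyte markers at 109 and 82.6 CPM, and in the smooth muscle class pericyte markers were at 2972 and 4988 CPM. Their part in the Pdgfrb differences was not tested. Fibroblasts outside the Pi16-positive subset, which was larger at P7, were at 39.9 and 39.1 CPM. The difference in the fibroblast class was thus not seen in their pooled level. Single subsets, which may overlap, differed in sign. Pdgfrb was higher at P1 in Dpep1-positive (0.34, interval 0.14 to 0.55), Gdf10-positive (0.48, 0.10 to 0.86) and Pi16-positive barcodes (1.05, 0.70 to 1.36). In Fmod-positive barcodes it was lower at P1 (-0.52, interval -0.84 to -0.20). Endothelial cells as a whole (5.96 and 5.74 CPM) and macrophages (2 and 7 UMIs) did not exceed the lymphocyte intervals. These were 1.16 to 34.6 CPM at P1, from only 2 UMIs, and 2.66 to 9.54 CPM at P7, from 11 UMIs. The endothelial subsets were uneven. Endocardial barcodes read 13.6 and 19.8 CPM, lymphatic barcodes 23.4 and 11.4 CPM, and arterial barcodes 21.5 and 3.79 CPM (17 and 7 UMIs). Smooth muscle markers were at 371 and 118 CPM in arterial barcodes, beside 79.0 and 101 CPM in the endothelial class. Their part in the arterial Pdgfrb values was not tested. Capillary barcodes read 2.98 and 5.09 CPM with Aplnr and 1.97 and 5.41 CPM with Car4.

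Within fibroblasts Pdgfrb was uneven. Gdf10-positive barcodes had more than the rest, 76.4 against 37.1 CPM at P1 (log2 ratio 1.05, interval 0.75 to 1.32) and 54.9 against 26.1 CPM at P7 (1.08, interval 0.78 to 1.35). The summed pericyte markers were also higher there, at 268 CPM against 109 CPM in all fibroblasts at P1 and 164 against 82.6 CPM at P7, and their part in the Pdgfrb difference was not tested. Fmod-positive barcodes were at 63.1 against 36.8 CPM at P1 (0.78, interval 0.52 to 1.02) and 90.6 against 24.7 CPM at P7 (1.88, interval 1.63 to 2.11), the reverse of their order for Pdgfra. Smooth muscle markers were higher in these barcodes, as given for Pdgfa, whereas pericyte markers were at 120 against 108 CPM at P1 and 75.4 against 82.9 CPM at P7. Pi16-positive barcodes, 118 at P1 and 1393 at P7, had 39.6 and 19.3 CPM, against 39.9 and 39.1 CPM in the other fibroblasts. They were level with the other fibroblasts at P1 (0.00, interval -0.34 to 0.30) and lower at P7 (-1.02, interval -1.19 to -0.85).

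**Figure D3:**
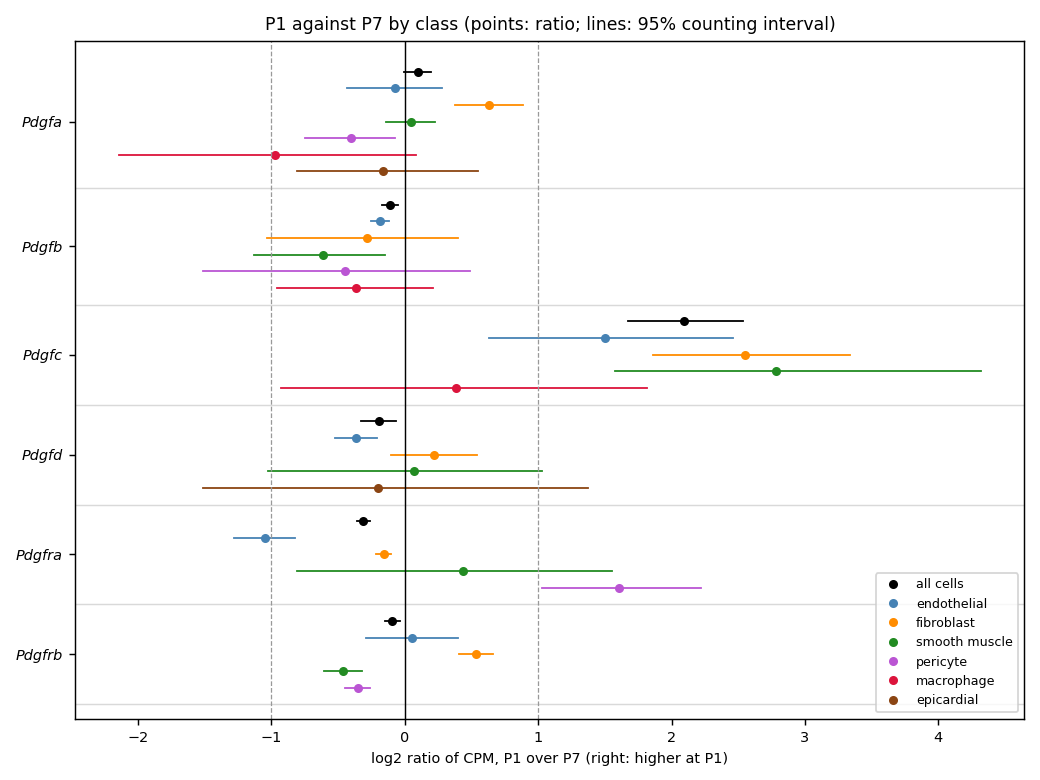
Log2 ratio of CPM at P1 over P7 (horizontal axis, right is higher at P1) for each member in all cells and in each class with at least 20 summed UMIs, with lines for the 95% counting interval, and dashed lines at a 2-fold difference. Pdgfc lies right of the 2-fold line in all cells, endothelial cells, fibroblasts and smooth muscle, whereas Pdgfrb lies right of 0 in fibroblasts and left of 0 in smooth muscle and pericytes.

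In macrophages 0 of the 3 members tested were past the fold, beside 6.28% of all genes, and in epicardial cells 0 of the 2 tested were, beside 8.07%. The shares of each member's UMIs that lay in barcodes passing several gates or none ranged widely, and Pdgfa had 15.3% of its UMIs at P1 in barcodes without a class but 4.08% at P7. In these barcodes alveolar epithelial genes summed to 2404 CPM at P1, against 0.344 CPM at P7. Their part in the Pdgfa share was not tested.

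**Figure D4:**
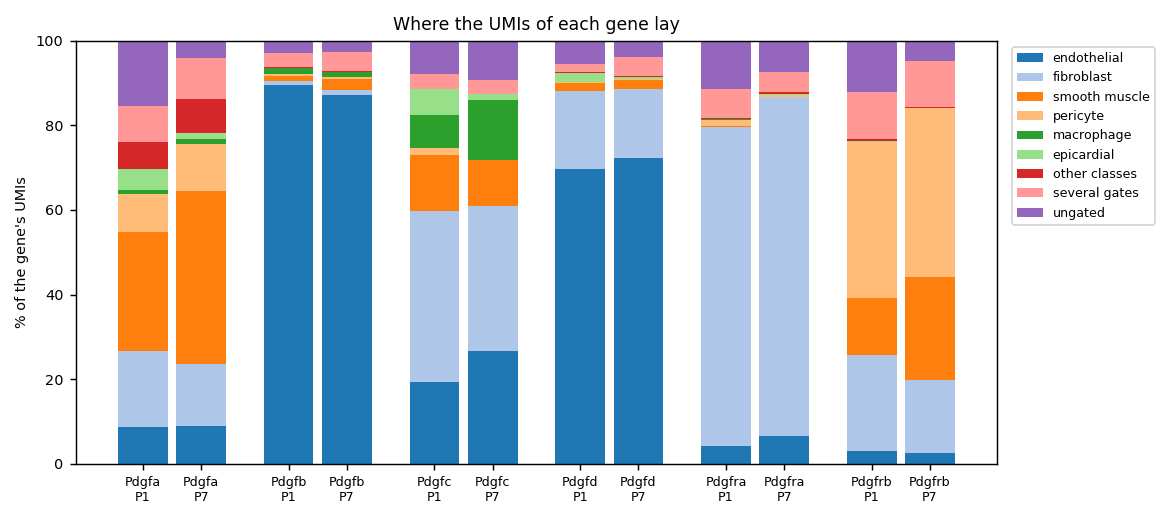
Share of the UMIs of each member (vertical axis, percent, stacked to 100) that lay in each cell class at P1 and P7, with the classes outside the 6 gates summed as other classes and barcodes passing several gates and ungated barcodes shown separately. Endothelial barcodes take 89.6% and 87.3% of Pdgfb, fibroblasts take 75.4% and 80.1% of Pdgfra, and Pdgfrb is divided between pericytes (36.9% and 40.0%), smooth muscle and fibroblasts.

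Whether the receptors were found in the same cells was examined in barcodes thinned to 2000 UMIs. In fibroblasts 28.3% of barcodes at P1 had Pdgfra and 8.18% had Pdgfrb, and 2.31% (1.59 to 3.23) had both, beside 2.32% given by the product of the shares. At P7 the shares were 30.5% and 5.01%, and 1.44% (1.02 to 1.97) had both, beside a product of 1.53%. At this depth the products lay inside the intervals. Each interval covers the joint share alone, so a product inside it does not show that the genes were independent. Unthinned, 25.1% (22.9 to 27.4) of fibroblast barcodes at P1 had both, beside a product of 26.6%, and 20.3% (18.8 to 21.8) at P7, beside a product of 21.9% that lay above the interval. Pdgfrb was then in 32.7% of barcodes with Pdgfra and 40.9% of those without at P1, and in 24.7% and 35.7% at P7. When Fmod-positive barcodes were set apart, the unthinned products lay inside the intervals on both sides at both ages. At P7 the other fibroblasts had both in 19.7% (18.2 to 21.3), beside 20.8%, and Fmod-positive barcodes in 33.9% (25.3 to 43.3), beside 30.7%. In the other fibroblasts at P7, Pdgfrb was in 23.5% of barcodes with Pdgfra and 31.8% of those without. For Fmod-positive barcodes these shares were 75.0% and 61.9%. In unthinned endothelial barcodes both receptors were found in 1.81% (1.23 to 2.58) at P1, beside a product of 0.298%. At P7 they were found in 1.10% (0.769 to 1.51), beside 0.243%. Pdgfrb was in 28.3% of endothelial barcodes with Pdgfra and 3.03% of those without at P1, and in 17.3% and 2.93% at P7. The part of mixed barcodes in this was not tested. In endothelial cells Pdgfb and Pdgfd were found together in 2.06% (1.42 to 2.88) of barcodes at P1, beside a product of 1.56%, and in 2.60% (2.07 to 3.22) at P7, beside a product of 2.15%. The products lay inside the intervals when thinned but below them unthinned, where 16.9% (15.1 to 18.8) of barcodes had both at P1, beside 14.1%, and 17.1% (15.9 to 18.5) at P7, beside 15.0%. Unthinned shares also move with the depth of each barcode. In smooth muscle Pdgfa and Pdgfrb were found together in 17.5% (11.6 to 24.7) and 20.3% (16.3 to 24.7) of barcodes, and the products lay inside these intervals. Unthinned, 71.1% and 69.7% of smooth muscle barcodes had both.

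Of the wider pathway, 52 genes for ligand processing, ligand retention and co-receptors, receptor-proximal signalling and receptor attenuation were followed. In fibroblasts 50 of them could be compared and 1 was past the fold. It was Pcsk6, a furin-like convertase, which was higher at P7, at 77.5 and 277 CPM (log2 ratio -1.84, interval -1.91 to -1.77). The 3 ligand-activating proteases followed in each class were not past the fold there. Furin was at 46.3 and 37.7 CPM (0.30), Plat, the tissue plasminogen activator, was at 147 and 195 CPM (-0.41), and Plau, the urokinase, was at 2.11 and 3.38 CPM (-0.67, interval -1.19 to -0.20). Over all genes in fibroblasts the share past the fold was 10.7%.

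In endothelial cells 1 of 52 genes was past the fold and higher at P1 and 2 were higher at P7, beside 8.85% of all genes. A2m, the protease inhibitor alpha-2-macroglobulin that binds PDGF, was at 9.49 and 2.41 CPM (1.97, interval 1.58 to 2.38). Pcsk6 was at 5.47 and 28.3 CPM (-2.37, interval -2.67 to -2.09), and Lrp1, a receptor that takes up PDGF complexes, at 10.6 and 21.4 CPM (-1.01, interval -1.24 to -0.79). Pcsk6 and Lrp1 moved in the same direction as the fibroblast markers in the endothelial class, and the part of fibroblast RNA in them was not tested. Furin was at 50.7 and 48.9 CPM, Plat at 116 and 130 CPM, and Plau at 3.83 and 7.53 CPM (-0.97, interval -1.37 to -0.60).

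In smooth muscle 4 of 47 genes were past the fold and all were higher at P1, beside 6.77% of all genes. Pdgfrl, a receptor-like gene without a kinase, was at 160 and 32.2 CPM (2.31, interval 2.01 to 2.62), in the same direction as the fibroblast markers of this class, whose part in it was not tested. The other 3 belong to receptor attenuation. They were Ptprj, a receptor phosphatase, with 15 and 12 UMIs (8.27 and 2.88 CPM, 1.51, interval 0.33 to 2.75), Socs3, a suppressor of cytokine signalling, at 261 and 128 CPM (1.04), and Socs1 at 16.5 and 8.17 CPM (1.02). In pericytes 2 of 47 were past the fold, beside 5.24% of all genes. Socs3 was at 138 and 41.4 CPM (1.73, interval 1.40 to 2.08), and the kinase Src was at 45.1 and 22.5 CPM (1.00, interval 0.50 to 1.52). Furin was at 56.2 and 51.9 CPM in smooth muscle and 54.3 and 55.8 CPM in pericytes, and Plat was at 25.4 and 20.7 CPM and at 215 and 209 CPM. Plau had 4 and 14 UMIs in smooth muscle and 1 and 8 UMIs in pericytes, too few to compare. Of the 22 receptor-proximal signalling genes, Src was the only one past the fold in these 4 classes.

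Macrophages had 5 of 39 pathway genes past the fold, all higher at P7 (Plau, Serpine2, Sparc, Crkl and Spry1), beside 6.28% of all genes. Fibroblast markers in the macrophage class were also higher at P7, at 448 against 139 CPM. Epicardial cells had 1 of 29 higher at P1 (Fyn) and 2 higher at P7 (Pcsk5 and Crk), beside 8.07%, and Fyn rested on 23 UMIs at P1 and 1 at P7. Over all cells 2 of 52 genes were past the fold, A2m higher at P1 and Pcsk6 higher at P7.

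**Figure D5:**
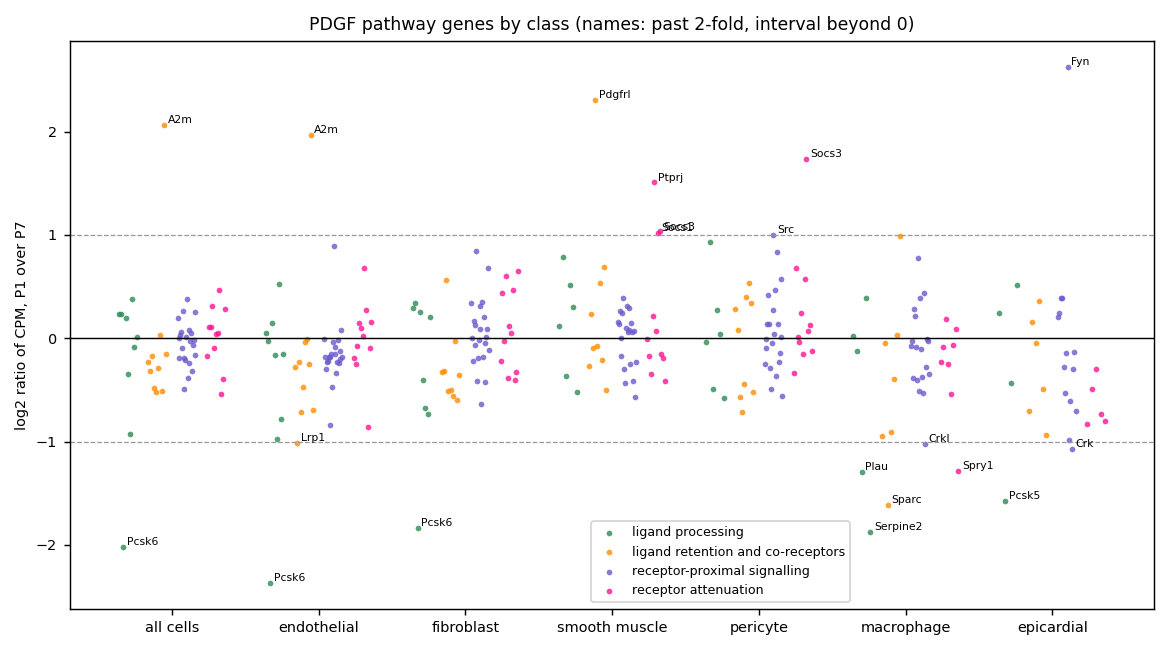
Log2 ratio of CPM at P1 over P7 (vertical axis, up is higher at P1) for the 52 pathway genes in all cells and in 6 classes, coloured by list, for genes with at least 20 summed UMIs; names mark genes past 2-fold whose counting interval excludes 0. Pcsk6 lies below the lower dashed line in all cells, endothelial cells and fibroblasts, and the named smooth muscle and pericyte genes all lie above the upper one.

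The genes whose log2 CPM followed each member most closely over the 6 classes at both ages (12 points) were sought among 13478 genes with at least 100 UMIs. The members, the gate genes and Pecam1 were left out of this search. The closest genes were Ano1 (Pearson r 0.98), 6330403L08Rik (0.98) and Plxnb1 (0.96) for Pdgfa. For Pdgfb they were Chst15 (0.96), Ankrd37 (0.95) and Nhsl2 (0.94). For Pdgfd they were Cd59a (0.95), Bend7 (0.95) and Npr1 (0.95). For Pdgfra they were Bcat1 (0.99), Ano4 (0.97) and D630003M21Rik (0.97), and for Pdgfrb Fam162a (0.98), Ndufa4l2 (0.98) and Ednra (0.97). Pdgfc had the weakest likenesses, with Nlrx1 (0.90), Bri3 (0.86) and Fxr1 (0.85). The points share 2 libraries and come in pairs of the same class, so these values are descriptions.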

How the data were processed

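The authors processed the reads with Cell Ranger 3.1.0 against mm10 (GRCm38) and deposited, for each library, a matrix of raw UMI counts per gene and barcode. From these counts, barcodes with 200 to 8000 genes and at most 20% mitochondrial UMIs were kept, and UMIs were summed per library and class. The 6 classes follow fixed gates: Cdh5, Myh11, Kcnj8, Csf1r or Upk3b of at least 2 UMIs, or Dcn of at least 3 UMIs and 0.1% of UMIs with Pecam1 at 0. Barcodes passing both the Myh11 and Kcnj8 gates were placed in smooth muscle where Myh11 was above Kcnj8, and otherwise in pericytes. The mural classes therefore do not exclude each other's gate gene. Barcodes passing the Upk3b gate were taken as epicardial before the fibroblast gate. After these rules, barcodes still passing several gates (203 at P1 and 344 at P7) were left out of classes, which removes some doublets. No doublet caller was run. Log2 ratios had 0.5 counts added, with exact Poisson intervals for levels and exact conditional binomial intervals for ratios and shares. PCR and capture error are not in them. Thinning drew 2000 UMIs per barcode and left out 574 shallower barcodes at P1 and 727 at P7. Likeness used log2(CPM + 1). Python 3.11.15, numpy 2.4.6, scipy 1.17.1, pandas 2.3.3 and matplotlib 3.10.9 were used. The ratio code was run on simulated independent Poisson counts, which follow the model that the intervals assume. That run checks the code only and does not bear on spread between barcodes or hearts.

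The members, lists and gates were chosen with earlier results of these data known. Subsets and the further classes, such as lymphocytes, granulocytes and cardiomyocytes, were defined in the same way. Some genes of the pathway lists and 1 class are not reported here. Named pathway genes were, in the endothelial, fibroblast, smooth muscle and pericyte classes, the 2 largest ratios past the fold in each direction, and Furin, Plat and Plau throughout. The other pathway genes named were chosen after their values were seen. Promoter sequences are from RefSeq (GRCm38.p6) and matched 4 of the 6 members by symbol, and positions are from GENCODE M21. Differences in capture between genes were not corrected, so CPM of different genes are not read as relative transcript amounts. Where genes are set side by side, as for Pdgfc as the sparsest member or Pdgfra per fibroblast marker UMI, the values are UMI counts.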

Additional observations from a re-analysis of the deposited data

Results flagged for a closer look

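For 3 members the difference between the ages had opposite signs in different classes, each with a counting interval that excluded 0. With 1 library per age the difference between the classes was not tested. The log2 ratio of P1 over P7 for Pdgfa was 0.63 in fibroblasts and -0.40 in pericytes. For Pdgfrb it was 0.53 in fibroblasts, -0.46 in smooth muscle and -0.35 in pericytes. For Pdgfra it was -1.05 in endothelial cells, -0.16 in fibroblasts and 1.61 in pericytes. Within fibroblasts, Fmod-positive barcodes had signs other than those of the class. Their log2 ratios were -0.34 for Pdgfa (interval -0.76 to 0.07), -0.52 for Pdgfrb (-0.84 to -0.20) and 0.22 for Pdgfra (-0.13 to 0.57). The other fibroblasts were at 0.44, 0.57 and -0.09. Fibroblasts outside the Pi16-positive subset, pooled, were at 39.9 CPM of Pdgfrb at P1 and 39.1 CPM at P7. The log2 ratio of Pdgfrb was 1.05 in Pi16-positive, 0.48 in Gdf10-positive and 0.34 in Dpep1-positive barcodes, and these subsets may overlap. The endothelial and pericyte values of Pdgfra rest on levels that the lymphocyte interval overlaps in at least 1 of the libraries. The pericyte UMIs of Pdgfra lay in 26 of 167 barcodes at P1 and 13 of 310 at P7.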

How the results depend on the processing

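Of 192 recomputed values of the 16 main log2 ratios under 12 alternatives, 170 stayed within their counting interval and 22 moved outside it. Pdgfc in all cells ranged from 1.82 to 2.45 and in fibroblasts from 2.27 to 2.70. With a mitochondrial limit of 10%, Pdgfrb in all cells was -0.15. Gates of 1 UMI gave Pdgfrb in pericytes -0.53, gates of 4 UMIs gave Pdgfrb in fibroblasts 0.35, and keeping barcodes of several gates gave Pdgfrb in pericytes -0.50. Thinning to 2000 UMIs, which weights barcodes equally, gave in all cells -0.42 for Pdgfb, -0.33 for Pdgfd and -0.044 for Pdgfra, in fibroblasts -0.094 for Pdgfra and 0.73 for Pdgfrb, in smooth muscle 0.23 for Pdgfa and 1.39 for Pdgfd, and in pericytes -0.15 for Pdgfrb. The mean of CPM per barcode, which also weights them equally, gave in all cells 0.24 for Pdgfa, -0.38 for Pdgfb, -0.36 for Pdgfd, 0.11 for Pdgfra and 0.032 for Pdgfrb, in fibroblasts 0.0025 for Pdgfra and 0.36 for Pdgfrb, and in pericytes -0.19 for Pdgfrb. Over all cells the signs of Pdgfra and Pdgfrb thus turned with the mean per barcode, but not when thinned. Median-ratio scaling gave Pdgfb in endothelial cells -0.12. Leaving out barcodes with any lung or posterior gene, or with more than a single alveolar gene, gave Pdgfa in all cells -0.059.

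Of the values of 17 further ratios, 191 stayed within their interval and 13 moved. Pdgfra in pericytes ranged from 0.55 to 2.87. Pdgfra in endothelial cells fell under the 2-fold limit with gates of 1 UMI (-0.85), thinning (-0.46), the mean per barcode (-0.40), median-ratio scaling (-0.98) and without the 5% deepest barcodes (-0.69). The interval of Pdgfc reached 0 in endothelial cells with gates of 4 UMIs (1.11) and in smooth muscle when thinned (2.24). The causes were not tested. No paired analysis was possible because each age has 1 library. The precision of Pdgfc is limited by its 166 and 64 UMIs, and no alternative can supply the missing replicates.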
